A study of Mus musculus with 5 samples.

Results

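The claudins, cadherins and the other genes of the tight junction were followed in injured kidneys of mice with and without a tubular Cre directed at Prdm16. The set was taken by gene name from the deposited gene tables and held 65 of the 35478 listed genes, 26 claudins, 22 cadherins other than the endothelial Cdh5, and 17 genes for the remaining strand proteins, the scaffolds and the polarity complex. Of these, 43 passed the filter on low counts, among 16394 genes in all. The members are described by the nephron segment in which textbooks place them.

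RNA-seq was performed on the kidney cortex of 5 mice on a C57BL/6J;129 background, 1 library per mouse. All mice were aged 7 to 8 weeks and carried floxed alleles of Prdm16 with loxP sites around exon 9. Every mouse had ischemia-reperfusion surgery on one kidney (UIRI), with the left renal pedicle clamped for 35 min at 38.5 °C. The right kidney was removed at day 10 and the mice were killed 24 h later, at 11 days. The 2 Prdm16fl/fl mice (mouse 1 and mouse 3, called the control mice) had no Cre, and the 3 Ksp-Cre/Prdm16fl/fl mice (mouse 1, mouse 2 and mouse 3, called the Ksp-Cre mice) expressed Cre from the promoter of Ksp-cadherin, which is the product of the member Cdh16. No library came from an uninjured kidney, and no library carried Cre without the floxed alleles, so that Cre itself and the loss of Prdm16 cannot be told apart.

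Tight junctions seal neighbouring epithelial cells and at the same time let chosen ions and water pass between them. The claudins, which are tetraspan membrane proteins, form the strands and set which ions may pass, and each stretch of the nephron carries its own combination of them. Occludin, tricellulin and the junctional adhesion molecules belong to the same strands, the zonula occludens proteins and cingulins tie the strands to actin, and the cadherins of the adherens junction hold the cells together below.

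The libraries held 14939040 to 16425161 assigned read counts. Prdm16 itself stood at 25.3 and 20.0 counts per 1000000 (CPM) in the control mice and at 17.1, 17.0 and 18.0 CPM in the Ksp-Cre mice, a log2 difference of -0.38 ± 0.15 (SE) with an adjusted p of 0.259, and the gene table cannot show whether the remaining reads lie outside the deleted exon. The library of Ksp-Cre mouse 3 stood apart, with a correlation over log2 CPM of all tested genes of 0.963 and 0.966 with the other Ksp-Cre libraries, which correlated at 0.993 with each other, so results that turn on it are given with and without it. Proximal tubule markers were present in every library, at a summed level of 4482 to 11722 CPM, as were podocyte markers. Of 6 urothelial markers 4 were too low to be tested, among them Upk2 at 0 to 4 counts and Krt5 at 0 to 22 counts. Upk1a was at 25 to 37 counts in every library, and Upk1b at 24 and 16 counts in the control mice and 0, 2 and 1 in the Ksp-Cre mice. Because the tissue was sequenced in bulk, fewer cells of a type and less RNA per cell cannot be told apart.

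No member passed the test. With edgeR's quasi-likelihood test and Benjamini-Hochberg adjustment over all genes, 0 of 43 members were called higher and 0 called lower (adjusted p under 0.05 with a change of at least 1 on the log2 scale), where 0.0793% of all genes tested were called higher and 0.628% lower. At an unadjusted p under 0.05 there were 13 members, 11 higher and 2 lower, and the background was 7.64% and 11.2%. DESeq2 called 2 members higher, Cldn4 and Cdh17, and 0 lower, where it called 0.683% of all genes higher and 2.32% lower. By its adjusted p alone it gave 6 members, Cldn4, Cldn7, Cldn10, Cdh3, Cdh13 and Cdh17, against 7.32% of all genes. The closest to the threshold in edgeR were Cldn7 with an adjusted p of 0.055 and Cldn4 with 0.063. With 2 mice against 3, the smallest one-sided p that exact permutation of the mice allows for a gene is 0.1. Doubled for both directions it is 0.2, so no permutation p is given.

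More members lay above the control mice than below them. In 17 members all 3 Ksp-Cre libraries were above both control libraries, or 39.5%, where 20.3% of all genes tested were so placed. In 5 members, or 11.6%, they were all below, against 21.3% of all genes. The median log2 fold change of the 43 members was 0.30, and that of all genes was 0.04. Scaling by library size moved the median of all genes to 0.15 and that of the members to 0.41. By mouse, the median log2 difference of the members from the control mean was 0.27, 0.26 and 0.15 in the Ksp-Cre mice. Of the marker lists, all 5 erythroid genes were above both controls, with a sum of 6.67 and 10.8 CPM in the control mice and 151, 150.3 and 40.5 CPM in the Ksp-Cre mice, and their part in the members' values was not tested.

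**Figure D1:**
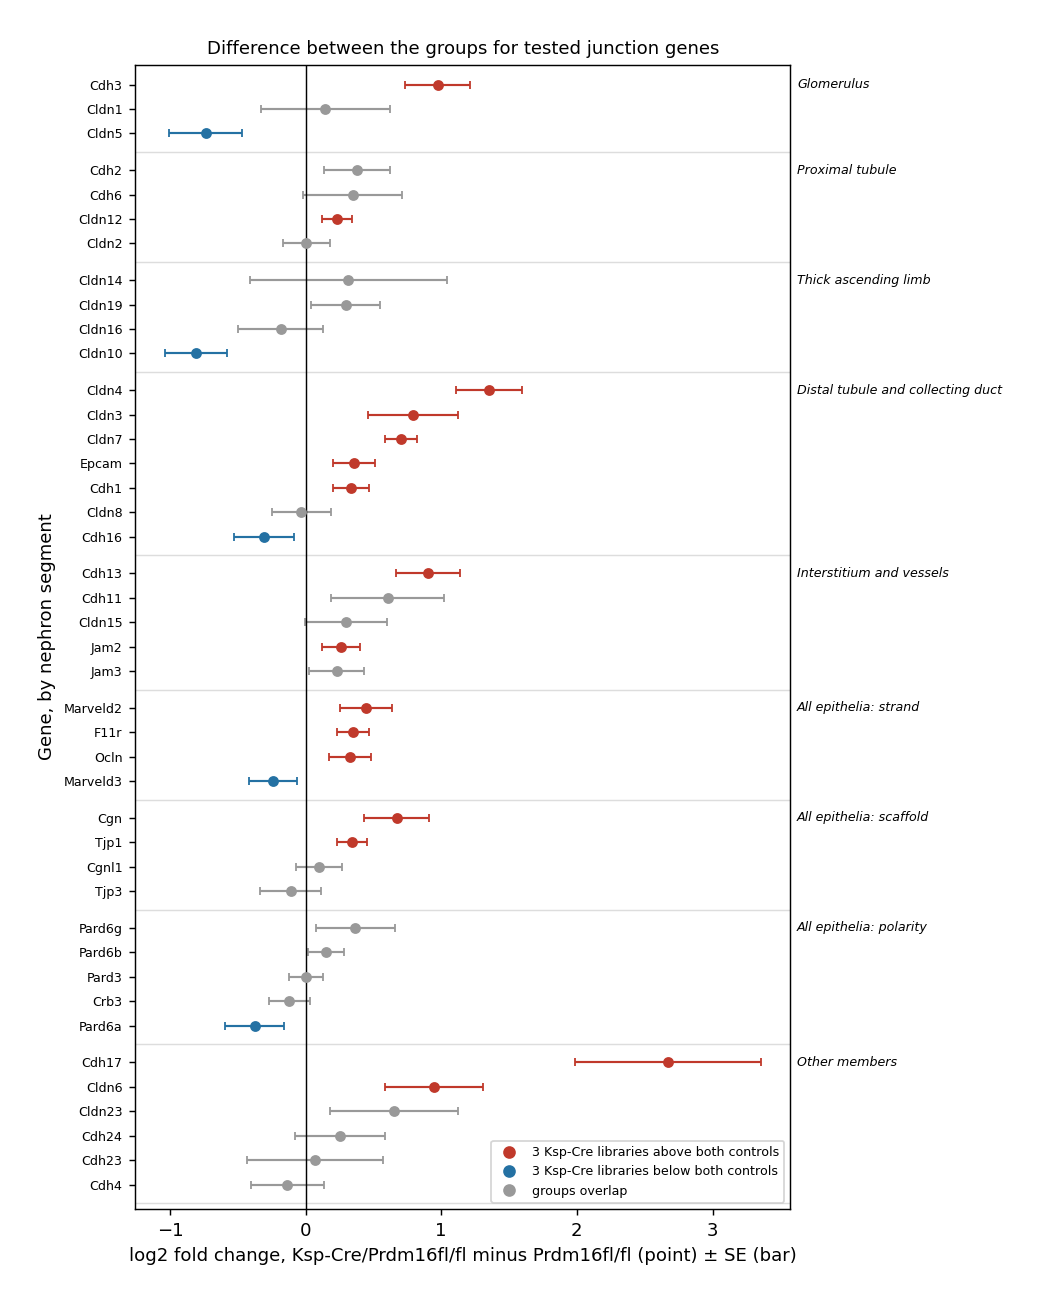
Log2 fold change between the Ksp-Cre/Prdm16fl/fl and Prdm16fl/fl groups for the tested members reported here (horizontal axis, points with SE bars), listed by nephron segment and coloured by whether the 3 Ksp-Cre libraries lay above both controls, below both or overlapped them. The distal tubule and collecting duct list holds Cldn4 at 1.35 ± 0.25 and the thick ascending limb list Cldn10 at -0.81 ± 0.23.

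The promoters of the claudins with the smallest adjusted p-values are shown here, together with that of Cldn3, because Cldn3 and Cldn4 are neighbours on chromosome 5, with 39280 bases between them in the deposited tables, and both were above the controls in every Ksp-Cre mouse. In those tables, whose mouse build is not named and is not GRCm38, Cldn4 lies at chr5:134973977-134975788, Cldn3 at chr5:135015068-135016330, Cldn7 at chr11:69855605-69858712 and Cldn10 at chr14:119025283-119111937. Each sequence is the 250 bases before an annotated start, 5′ to 3′ on the gene's strand, from RefSeq on build GRCm38.p6. Capitals mark the E-box CACCTG, the letters that Snail and Zeb repressors recognise, or the letters GTTAAT of an HNF1 half-site, each on either strand.
Cldn4 (chr5:134946935-134947184, minus strand): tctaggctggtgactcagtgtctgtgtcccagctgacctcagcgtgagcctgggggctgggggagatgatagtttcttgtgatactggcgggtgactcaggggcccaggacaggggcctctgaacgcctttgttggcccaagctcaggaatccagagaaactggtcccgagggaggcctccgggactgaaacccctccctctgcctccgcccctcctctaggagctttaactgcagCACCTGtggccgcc
Cldn3 (chr5:134985964-134986213, plus strand): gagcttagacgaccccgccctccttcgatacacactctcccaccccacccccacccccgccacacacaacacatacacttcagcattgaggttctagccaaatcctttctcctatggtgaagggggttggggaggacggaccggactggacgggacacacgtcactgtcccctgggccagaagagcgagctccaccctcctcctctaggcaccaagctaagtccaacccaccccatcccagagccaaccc
Cldn7, the downstream start (chr11:69965171-69965420, plus strand): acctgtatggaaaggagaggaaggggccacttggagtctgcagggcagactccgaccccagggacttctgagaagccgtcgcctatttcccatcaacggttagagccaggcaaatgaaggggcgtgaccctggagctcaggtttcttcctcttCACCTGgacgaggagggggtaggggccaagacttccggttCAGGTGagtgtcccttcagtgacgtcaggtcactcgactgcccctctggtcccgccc
Cldn10, the upstream start (chr14:118787621-118787870, plus strand): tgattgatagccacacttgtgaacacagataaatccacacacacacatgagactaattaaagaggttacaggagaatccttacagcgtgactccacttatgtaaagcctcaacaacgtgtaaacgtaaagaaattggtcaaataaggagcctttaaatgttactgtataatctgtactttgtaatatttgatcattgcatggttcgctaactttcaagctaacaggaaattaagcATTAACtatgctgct
Cldn10, the downstream start (chr14:118854700-118854949, plus strand): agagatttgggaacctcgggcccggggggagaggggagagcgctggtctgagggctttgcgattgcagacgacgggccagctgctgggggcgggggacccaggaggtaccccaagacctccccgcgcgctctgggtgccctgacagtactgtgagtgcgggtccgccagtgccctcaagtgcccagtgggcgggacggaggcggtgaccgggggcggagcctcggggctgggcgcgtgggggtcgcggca

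The Cldn4 window held 1 E-box, 14 bases before the start, and the downstream Cldn7 window held 2, which lie 97 and 57 bases before the start. The Cldn3 window and the upstream Cldn7 window held neither motif. E-boxes were found in 17.2% of the 32851 promoter windows of the same length in the RefSeq table, and in 16 of the 62 windows of the 46 members that the table lists. The Cldn10 starts lie 67.1 kb apart, and the gene is known to make one claudin from each of its alternative first exons. An HNF1 half-site stood 15 bases before the upstream start, where 6.43% of all windows held one and 7 of the 62 member windows. The gene tables give 1 value for Cldn10 and do not separate these transcripts. A match of letters is a description of the sequence and says nothing of binding in these kidneys.

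Per unit of transcript length the set was led by few genes. Mean deposited TPM (transcripts per 1000000) over the 5 libraries was 621 for Cdh16 (range 414 to 718), 395 for Cldn2 (range 323 to 507), 179 for Epcam, 171 for F11r, 165 for Cdh1, 162 for Cldn10, 157 for Cldn4, 108 for Cldn1, and 103 for both Cldn7 and Cgnl1. Among these 10, the range over libraries of each gene overlapped that of the next, except between Cldn2 and Epcam. At the other end, 22 members were not tested. Of all 65 members, 8 had no read in any library and 15, those 8 included, had at most 3 counts in each, and no untested member exceeded 11 counts. Among the untested were Cldn17, which textbooks place in the proximal tubule, and the brain and muscle cadherins Cdh7, Cdh8, Cdh9, Cdh10, Cdh12, Cdh15 and Cdh18.

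**Figure D2:**
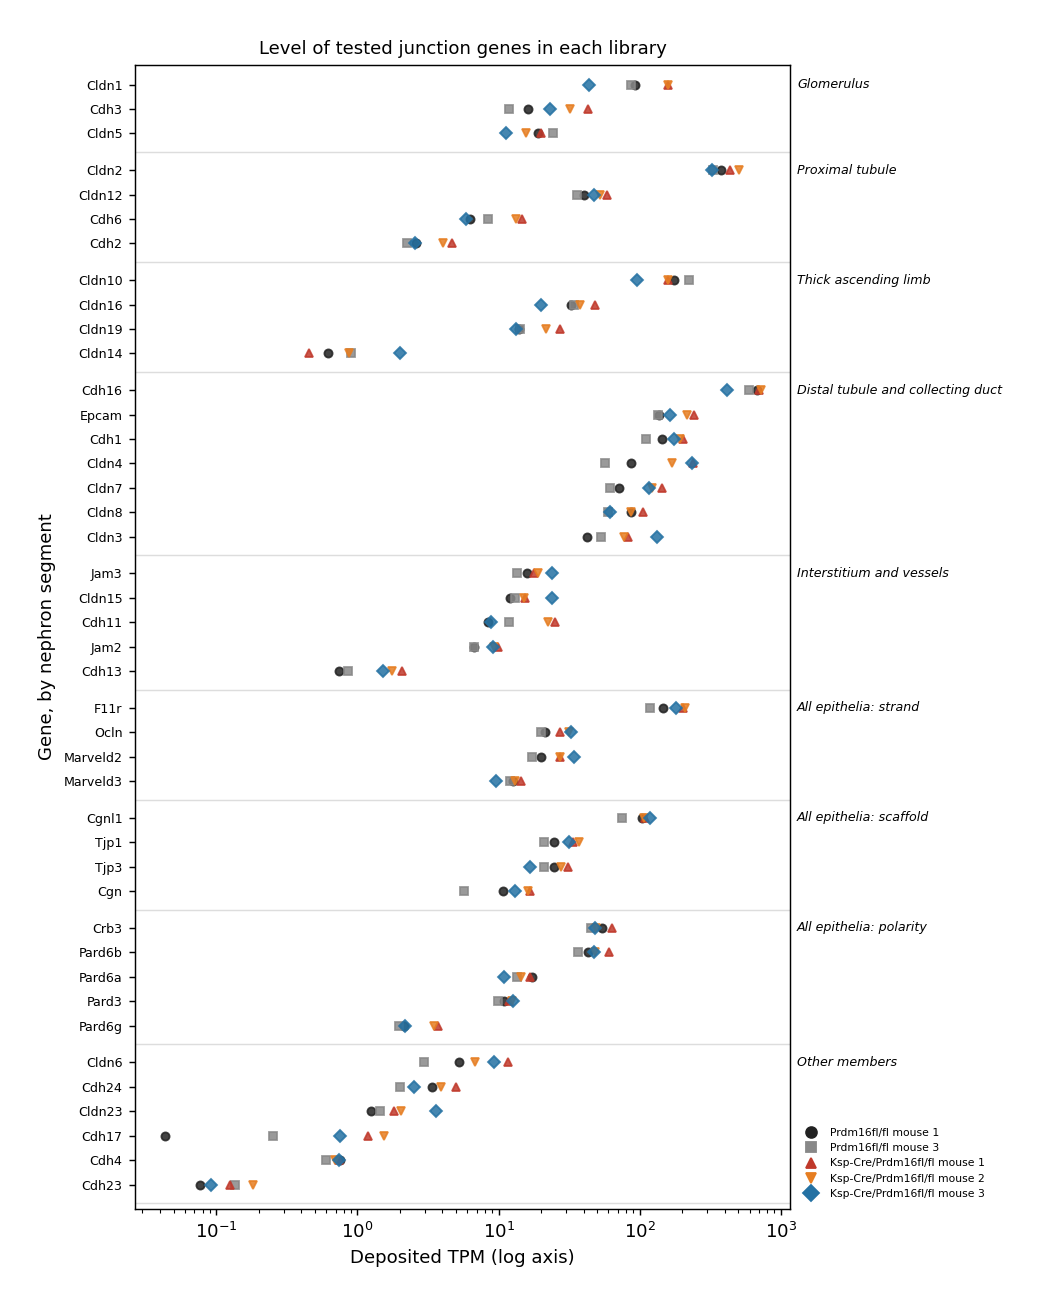
Deposited TPM (horizontal log axis) of each tested member reported here in each of the 5 libraries, with 1 symbol per mouse, listed by nephron segment. Cdh16 and Cldn2 sit at the right, and the Ksp-Cre mouse 3 symbol departs from those of Ksp-Cre mice 1 and 2 for Cldn1, Cdh6, Cldn19 and Cldn3.

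The claudins of the distal tubule and collecting duct included both members closest to the threshold. Here Cldn3, Cldn4, Cldn7 and Cldn8 set the barrier to sodium and the path for chloride. Of the 7 members of this list, 5 had all Ksp-Cre libraries above the controls and 1 below (20.3% and 21.3% of all genes), and 3 had an unadjusted p under 0.05, all higher (7.64% of all genes). Cldn4, a barrier claudin that also forms the chloride path of the collecting duct with Cldn8, stood at 68.8 and 49.3 CPM in the control mice and at 162, 114 and 176 CPM in the Ksp-Cre mice. Each Ksp-Cre library was well above both controls, by 2.55-fold on average (log2 fold change 1.35 ± 0.25, adjusted p = 0.063 in edgeR's quasi-likelihood test). DESeq2 gave an adjusted p of 4.7e-05, and edgeR without Ksp-Cre mouse 3 gave 1.23 with an adjusted p of 0.005.

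Cldn7, a claudin of the basolateral membrane as well as of the junction, was at 45.2 and 42.9 CPM in the control mice and at 77.9, 66.7 and 70.6 CPM in the Ksp-Cre mice. Both groups were tight and well separated, with a log2 fold change of 0.70 ± 0.12 (adjusted p = 0.055, and 0.72 with an adjusted p of 0.004 without mouse 3). Its partner Epcam, an adhesion protein that keeps Cldn7 stable, was at 123 and 134 CPM against 187, 166 and 141 CPM, with mouse 3 only just above the controls (0.36 ± 0.15, adjusted p = 0.287, and 0.46 with an adjusted p of 0.022 without mouse 3). Cldn3, a sealing claudin, was at 23.3 and 32.4 CPM against 38.7, 36.4 and 69.7 CPM. Mouse 3 was by far the highest in Cldn3, while mice 1 and 2 were only slightly above the higher control (0.79 ± 0.33, adjusted p = 0.271). Without mouse 3 the Cldn3 value was 0.44, with an adjusted p of 0.083. Cldn8 differed from its neighbours. It stood at 89.4 and 67.5 CPM in the control mice and at 93.4, 76.2 and 60.9 CPM in the Ksp-Cre mice, with overlapping groups and a log2 fold change of -0.03 ± 0.22, which turned to 0.088 with library size scaling and to 0.12 without mouse 3. The TPM ratio of Cldn4 to Cldn8 was 1.0 and 0.95 in the control mice and 2.26, 1.95 and 3.77 in the Ksp-Cre mice, and that of Cldn7 to Cldn8 was 0.82 and 1.03 against 1.35, 1.42 and 1.88.

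The cadherins of the same tubules lay on either side of the controls. Cdh16, the kidney-specific cadherin whose promoter drives the Cre, was at 979.7 and 944 CPM in the control mice and at 868, 889.6 and 575 CPM in the Ksp-Cre mice. Mice 1 and 2 were slightly below the controls and mouse 3 clearly so (-0.31 ± 0.22, adjusted p = 0.497). Without mouse 3 the Cdh16 value was -0.13, with an adjusted p of 0.457. E-cadherin, Cdh1, the main cadherin of the distal nephron, was at 278 and 238 CPM against 335, 317 and 322 CPM, all above the controls (0.33 ± 0.13, adjusted p = 0.252). Among all cadherin transcripts by TPM, Cdh16 made up 78.8% and 79.8% in the control mice and 70.1%, 72.5% and 65.3% in the Ksp-Cre mice. Cdh1 made up 16.7% and 15.0% against 20.2%, 19.3% and 27.4%.

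The marker genes of the same segment were below the controls or overlapped them. Of 8 principal cell markers 4 had all Ksp-Cre libraries below the controls and 0 had them above (21.3% and 20.3% of all genes). Their summed level was 641 to 748 CPM in the control mice and 375 to 592 CPM in the Ksp-Cre mice. Per 100 CPM of principal cell markers, Cldn4 stood at 9.20 and 7.69 CPM in the control mice and at 27.4, 30.4 and 44.2 CPM in the Ksp-Cre mice. Cldn8 on that scale was above both controls too, at 11.9 and 10.5 CPM against 15.8, 20.3 and 15.3 CPM, as were Cldn7 and Cldn3. Because the marker sum was lower in the Ksp-Cre mice, a gene with level CPM also rises on this scale. Slc14a2, a urea transporter of the inner medulla on the thin limb list, had 4 and 58 counts in the control libraries and 171, 123 and 359 counts in the Ksp-Cre libraries, highest in mouse 3 as Cldn3 and Cldn4 were. Tubular injury markers were higher as well, with 7 of 8 above both controls (20.3% of all genes). Their summed level was 13521 to 14637 CPM in the control mice and 29178 to 36014 CPM in the Ksp-Cre mice. Most of that sum was Spp1 alone, at 12277 and 13442 CPM against 27016, 28061 and 33774 CPM. The part of Slc14a2 or of the injury markers in the claudin values was not tested.

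**Figure D3:**
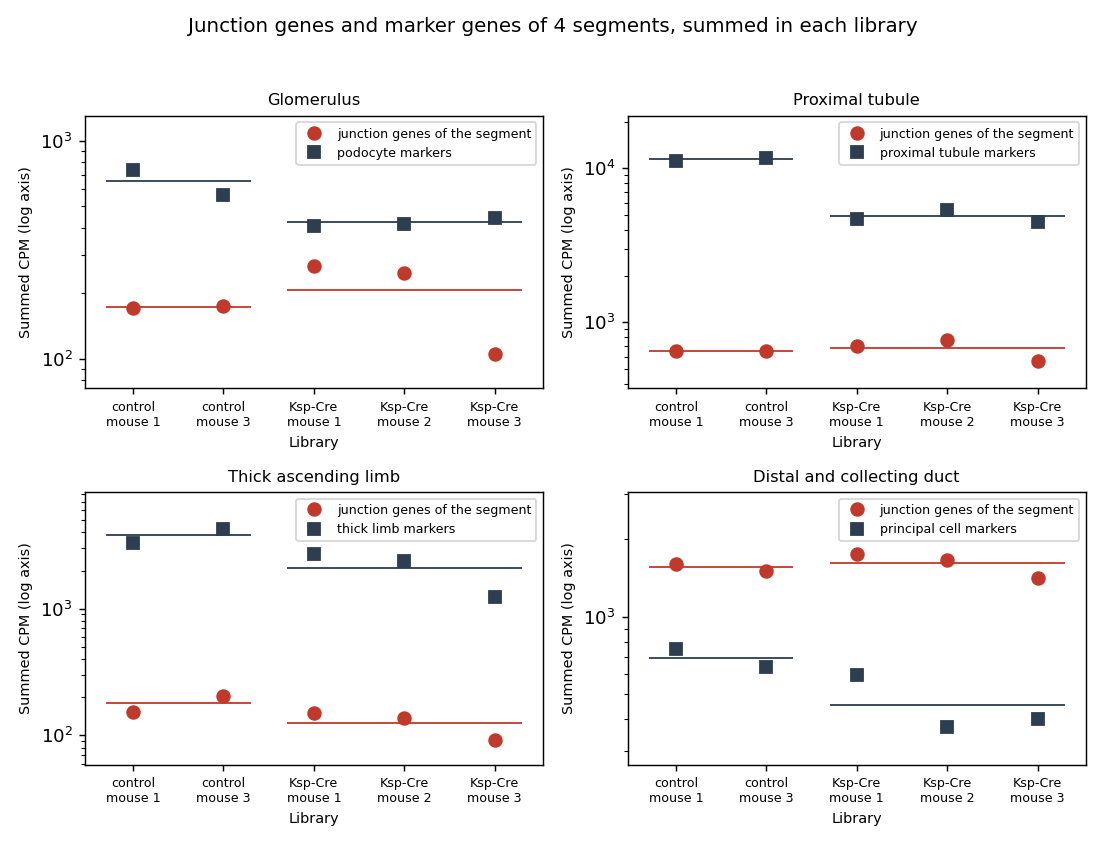
Summed CPM (vertical log axis) of the tested junction genes assigned to 4 segments and of the marker genes of the same segment, per library, with horizontal lines at the group means. Proximal tubule markers averaged 11452 CPM in the control mice and 4870.4 CPM in the Ksp-Cre mice, where the proximal junction genes averaged 652 and 681 CPM.

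In the thick ascending limb, Cldn10 carries sodium between the cells and Cldn16 with Cldn19 carries magnesium and calcium. Cldn10 was the 1 member of 4 whose groups did not overlap, where 20.3% of all genes lay above both controls and 21.3% below. It stood at 111 and 155 CPM in the control mice and at 85.2, 85.1 and 57.7 CPM in the Ksp-Cre mice. All Ksp-Cre libraries were below both controls, by 1.75-fold on average (log2 fold change -0.81 ± 0.23, adjusted p = 0.143), and lowest in mouse 3. DESeq2 gave an adjusted p of 0.034, and edgeR without mouse 3 gave -0.64 with an adjusted p of 0.021. One of the Cldn10 proteins is also made in the proximal tubule, so the gene does not mark the limb alone. By the deposited annotation, 33.6% of its exon bases are shared with Gm52105 on the opposite strand, which had at most 2 counts in any library.

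Cldn16 was at 16.7 and 19.2 CPM in the control mice and at 20.9, 16.7 and 9.86 CPM in the Ksp-Cre mice. Cldn19 was at 25.6 and 29.0 CPM against 42.8, 34.0 and 23.5 CPM. In both genes mouse 3 was the lowest library, and the groups overlapped (log2 fold changes -0.18 ± 0.31 and 0.30 ± 0.26). Without mouse 3 the value for Cldn16 turned to 0.071 and that for Cldn19 became 0.50 with an adjusted p of 0.042. The TPM ratio of Cldn16 to Cldn19 was 2.36 and 2.40 in the control mice and lower in each Ksp-Cre mouse, at 1.77, 1.77 and 1.51. The fourth member, Cldn14, which blocks the Cldn16 and Cldn19 pore, was at 0.341 to 1.67 CPM over the libraries, and its groups overlapped (0.32 ± 0.72, and -0.49 without mouse 3).

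Of the 5 markers of the thick ascending limb, 4 were below both controls in all Ksp-Cre mice (21.3% of all genes). Their summed level was 3325 and 4262 CPM in the control mice and 2687, 2368 and 1245 CPM in the Ksp-Cre mice, again lowest in mouse 3. Per 100 CPM of these markers Cldn10 was at 3.34 and 3.65 CPM against 3.17, 3.59 and 4.64 CPM, so that its groups overlapped on that scale. Cldn19 was at 0.769 and 0.680 CPM per 100 CPM against 1.59, 1.44 and 1.89 CPM, a scale on which the lower marker sum also lifts a gene with level CPM.

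In the proximal tubule 3 of the 4 tested members overlapped between the groups, as did 9578 of the 16394 genes tested. The markers of the segment were much lower in the Ksp-Cre mice. Cldn2, the cation and water pore of this segment, was at 536 and 522 CPM in the control mice and at 532, 619 and 443 CPM in the Ksp-Cre mice, with overlapping groups (0.01 ± 0.18, adjusted p = 0.986, and 0.13 without mouse 3). Cldn12 was at 74.3 and 73.7 CPM against 93.2, 82.5 and 84.8 CPM, a small difference with all Ksp-Cre libraries above the controls (0.23 ± 0.11, adjusted p = 0.328). N-cadherin, Cdh2, was at 11.3 and 10.7 CPM against 17.4, 14.9 and 10.6 CPM. Mice 1 and 2 were above the controls and mouse 3 just below them (0.38 ± 0.24, adjusted p = 0.448), and without mouse 3 the value was 0.56 with an adjusted p of 0.034. Cdh6, a cadherin of the developing and mature proximal tubule, was at 30.8 and 45.8 CPM against 62.3, 55.9 and 27.9 CPM, and mouse 3 was again below both controls (0.35 ± 0.36, adjusted p = 0.644). Without mouse 3 the Cdh6 value was 0.63, with an adjusted p of 0.034.

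Of 12 proximal tubule markers 11 had all Ksp-Cre libraries below both controls (21.3% of all genes), and 3 were called lower (0.628%). Their sum was 11181 and 11722 CPM in the control mice and 4724, 5405 and 4482 CPM in the Ksp-Cre mice. Slc34a1, the main phosphate transporter of the segment, was at 3579 and 3109 CPM against 1041, 1039 and 483 CPM. Per 100 CPM of these markers, Cldn2 was at 4.79 and 4.45 CPM in the control mice and at 11.3, 11.5 and 9.87 CPM in the Ksp-Cre mice. With the lower marker sum, a gene with level CPM rises on this scale. The share of Cldn2 in all claudin TPM, 35.4% and 33.1% against 28.9%, 35.4% and 28.4%, overlapped between the groups.

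Other claudins took different shares of the family. The summed TPM of the 26 claudins was 1061 and 1002 in the control mice and 1512, 1432 and 1140 in the Ksp-Cre mice. Cldn4 made up 8.22% and 5.65% of it in the control mice and 15.9%, 11.8% and 20.4% in the Ksp-Cre mice. Cldn10 made up 16.6% and 22.3% against 10.5%, 11.0% and 8.37%. For both genes the groups did not overlap, and with these group sizes no test is given. The TPM ratio of Cldn2 to Cldn10 was 2.13 and 1.48 in the control mice and 2.76, 3.21 and 3.39 in the Ksp-Cre mice.

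**Figure D4:**
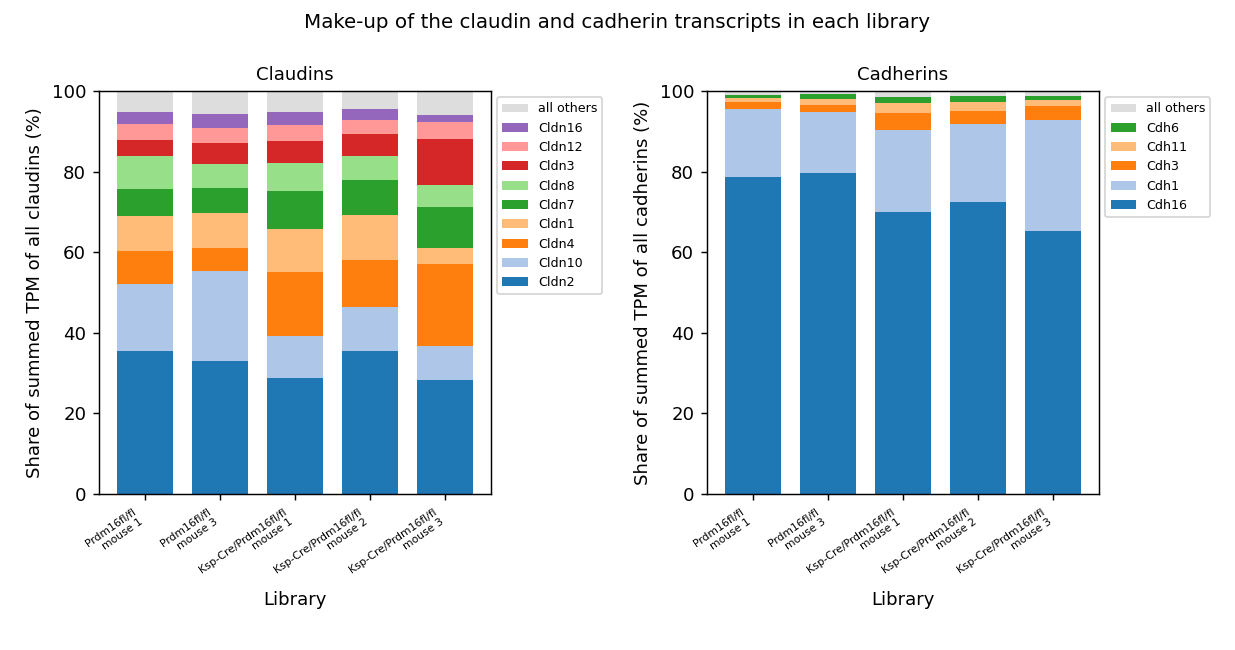
Share of the summed TPM of all claudins (left) and all cadherins (right) taken by the most abundant members in each of the 5 libraries, as stacked bars that sum to 100%. In the Ksp-Cre mice Cldn4 takes 11.8% to 20.4% and Cldn10 8.37% to 11.0% of claudin transcripts, and Cdh16 takes 65.3% to 72.5% of cadherin transcripts.

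The 3 glomerular members went 3 ways. Cldn1, the claudin of the parietal epithelium of Bowman's capsule, was at 132 and 135 CPM in the control mice and at 192, 191 and 59.7 CPM in the Ksp-Cre mice. Mice 1 and 2 were well above the controls and mouse 3 well below (0.15 ± 0.48, adjusted p = 0.894), and without mouse 3 the log2 fold change was 0.53 with an adjusted p of 0.007. P-cadherin, Cdh3, which podocytes carry at the slit diaphragm, was at 28.4 and 23.0 CPM against 64.5, 48.3 and 38.9 CPM. All Ksp-Cre libraries were above the controls (0.97 ± 0.24, adjusted p = 0.113), and edgeR without mouse 3 gave 1.13 with an adjusted p of 0.003. Cldn5, which podocytes and endothelium share, was at 11.7 and 16.6 CPM against 10.6, 8.21 and 6.66 CPM, all below the controls (-0.74 ± 0.27, adjusted p = 0.218).

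Of 6 podocyte markers 4 were below both controls and 0 above (21.3% and 20.3% of all genes). Their sum was 566 to 735 CPM in the control mice and 408 to 442 CPM in the Ksp-Cre mice. Per 100 CPM of podocyte markers Cldn5 was at 1.59 and 2.94 CPM against 2.59, 1.97 and 1.51 CPM, with overlapping groups. Cdh3 was thus higher where the podocyte markers were lower, and whether it came from podocytes was not tested.

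In the interstitium and vessels, Cdh13, an anchored cadherin of endothelium and smooth muscle, was at 3.57 and 4.59 CPM in the control mice and at 8.57, 7.27 and 7.06 CPM in the Ksp-Cre mice. All Ksp-Cre libraries were above (0.90 ± 0.24, adjusted p = 0.127), with an adjusted p of 0.044 in DESeq2 and of 0.019 in edgeR without mouse 3. Cdh11, the cadherin of fibroblasts, was at 22.9 and 35.7 CPM against 58.6, 52.0 and 23.1 CPM. Mice 1 and 2 were above the controls and mouse 3 within them (0.61 ± 0.42, adjusted p = 0.480), and without mouse 3 the value was 0.92 with an adjusted p of 0.011. Of 8 fibroblast markers 4 were above both controls and 0 below (20.3% and 21.3% of all genes). Their sum was 381 and 588 CPM in the control mice and 919, 880.4 and 624 CPM in the Ksp-Cre mice. Per 100 CPM of those markers Cdh11 was at 6.01 and 6.06 CPM against 6.38, 5.90 and 3.69 CPM.

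The junctional adhesion molecules of vessels differed little. Jam2 was at 14.8 and 16.1 CPM against 18.7, 17.5 and 19.1 CPM, just above the controls (0.26 ± 0.14, adjusted p = 0.377). Jam3 was at 28.4 and 26.5 CPM against 27.0, 29.0 and 40.7 CPM. Cldn15 was at 9.78 and 11.6 CPM against 10.6, 10.4 and 18.5 CPM. In Jam3 and Cldn15 Ksp-Cre mouse 3 was the highest library, and the groups overlapped (0.23 ± 0.20 and 0.30 ± 0.30), with values of 0.030 and -0.021 without mouse 3.

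Among the strand proteins that all epithelia share, occludin, tricellulin and F11r were higher in every Ksp-Cre mouse. F11r, or JAM-A, was at 157 and 141 CPM in the control mice and at 188, 193 and 188 CPM in the Ksp-Cre mice (0.35 ± 0.12, adjusted p = 0.193). Ocln, occludin, was at 39.1 and 40.5 CPM against 42.9, 49.5 and 57.8 CPM (0.33 ± 0.15, adjusted p = 0.317). Marveld2, tricellulin, which seals the corners where 3 cells meet, was at 29.3 and 28.1 CPM against 34.3, 34.4 and 48.7 CPM (0.44 ± 0.19, adjusted p = 0.285). Occludin and tricellulin were highest in mouse 3, whereas F11r was level across the Ksp-Cre mice. Without mouse 3 the values were 0.22 for Ocln, 0.26 for Marveld2 and 0.36 for F11r, the last with an adjusted p of 0.045. Marveld3, of the same family as both, was at 17.6 and 18.4 CPM against 17.3, 15.7 and 12.9 CPM, below the controls in all 3 (-0.24 ± 0.17, adjusted p = 0.504, and -0.13 without mouse 3).

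Among the scaffolds, Tjp1 and Cgn lay above the controls. Tjp1, or ZO-1, was at 93.0 and 87.0 CPM in the control mice and at 108, 119 and 114 CPM in the Ksp-Cre mice (0.34 ± 0.11, adjusted p = 0.187). The Ksp-Cre libraries were close to each other and clear of the controls, and without mouse 3 the adjusted p was 0.047. Cgn, cingulin, was at 24.1 and 14.1 CPM against 32.2, 31.1 and 28.1 CPM, and the control mice were further apart than the Ksp-Cre mice (0.67 ± 0.24, adjusted p = 0.215, and 0.048 without mouse 3). By the deposited annotation, 23.7% of its exon bases are shared with Gm52626 on the opposite strand, which had 3 to 18 counts. Tjp3, or ZO-3, was at 35.8 and 33.7 CPM against 38.6, 34.7 and 23.3 CPM and Cgnl1, paracingulin, at 346 and 276 CPM against 313, 307 and 381 CPM. Both overlapped, with log2 fold changes of -0.11 ± 0.22 and 0.10 ± 0.17, and with library size scaling that of Tjp3 turned to 0.014. Without mouse 3 the values were 0.081 for Tjp3 and -0.0023 for Cgnl1.

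The polarity genes, whose products place the junction along the cell side, were mostly close to the controls. Pard3 was at 43.6 and 44.2 CPM in the control mice and at 40.6, 43.0 and 48.6 CPM in the Ksp-Cre mice (0.01 ± 0.12, and -0.068 without mouse 3). Crb3, the apical partner of the complex, was at 33.0 and 30.6 CPM against 33.4, 25.9 and 28.5 CPM (-0.12 ± 0.15). Of its adaptor genes, Pard6b was at 63.3 and 60.0 CPM against 77.1, 61.0 and 67.2 CPM (0.15 ± 0.13). These 3 genes overlapped between the groups. Pard6g was at 2.97 and 3.01 CPM against 4.43, 4.19 and 2.93 CPM, with mouse 3 just below the controls (0.37 ± 0.29). Pard6a was at 10.8 and 9.33 CPM against 8.97, 7.74 and 6.53 CPM, and was the 1 polarity gene below the controls in all Ksp-Cre mice (-0.38 ± 0.21, adjusted p = 0.402).

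Of the 6 tested members on no segment list, 2 were higher in every Ksp-Cre mouse, where 20.3% of all genes were so placed. Cldn6, a claudin of embryonic epithelia, was at 3.51 and 2.15 CPM in the control mice and at 6.58, 3.90 and 5.93 CPM in the Ksp-Cre mice (0.95 ± 0.36, adjusted p = 0.237). Cdh17, the liver-intestine cadherin, had 1 and 6 counts in the control libraries and 28, 35 and 17 counts in the Ksp-Cre libraries, an adjusted p of 0.121 in edgeR, 0.030 in DESeq2 and 0.011 in edgeR without mouse 3. It was picked out after its values were seen, and no fold is given because the first control library held 1 count. The other 4 tested, Cldn23, Cdh4, Cdh23 and Cdh24, overlapped, at 0.404 to 7.61 CPM over genes and libraries and log2 fold changes of -0.13 to 0.65.

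A group of members separated Ksp-Cre mouse 3 from Ksp-Cre mice 1 and 2. In 6 of the 43 members, Cdh2, Cdh6, Cdh11, Cldn1, Cldn19 and Pard6g, mice 1 and 2 were above both controls and mouse 3 was not. Those 6 were 14.0% of the members, and 12.3% of all genes tested had the same placing, so the share was near the background. In 5 of the 6, all but Cdh11, mouse 3 was below both controls, a placing found in 1397 of all 16394 genes tested. Leaving mouse 3 out, edgeR gave an adjusted p under 0.05 for 16 of the 43 members, 15 higher and 1 lower, where 7.82% of all genes were higher and 11% lower. Of those, Cldn4, Cdh3 and Cdh17 also passed the limit of 1 on the log2 scale and 0 did so lower, where 1.43% of all genes were called higher and 3.1% lower. This fit compared 2 mice with 2, and leaving out any other mouse gave 0 called members, and 0 called genes of all those tested.

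The partners of these proteins outside the set were read in the same fit. Of 46 tested genes for catenins, nectins, desmosomes and other tight junction proteins, 23 had all Ksp-Cre libraries above the controls and 6 below, where 20.3% and 21.3% of all genes were so placed. edgeR called 0 of them and gave 15 an unadjusted p under 0.05, 11 higher and 4 lower, against 7.64% and 11.2% of all genes. DESeq2 called 0 as well, and gave 5 an adjusted p under 0.05, against 7.32% of all genes. Nectin4, an adhesion protein that starts cell contacts, was at 5.46 and 3.95 CPM in the control mice and at 8.57, 7.27 and 9.59 CPM in the Ksp-Cre mice (0.85 ± 0.25, adjusted p = 0.160). Lin7a, a scaffold of the polarity complex, was at 5.93 and 4.66 CPM against 2.90, 2.30 and 1.33 CPM, below the controls in all (-1.27 ± 0.37, adjusted p = 0.152, and -1.02 with 0.028 without mouse 3).

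Among 16 tested regulators 1 was called. Klhl3, the adaptor by which a ubiquitin ligase removes the WNK kinases and which is also known to bind Cldn8, fell from 57.6 and 44.1 CPM in the control mice to 24.3, 20.0 and 17.5 CPM in the Ksp-Cre mice (-1.30 ± 0.19, adjusted p = 0.047 in edgeR's quasi-likelihood test, background 0.628% called lower). The groups were clearly apart. Of 5 markers of the distal convoluted tubule, 4 were below both controls in all Ksp-Cre mice and 0 above, where 21.3% of all genes were below. Their summed level was 2315 and 1494 CPM in the control mice and 1410, 993 and 511 CPM in the Ksp-Cre mice. Their part in the Klhl3 value was not tested. The call was lost when any one control mouse, Ksp-Cre mouse 1 or Ksp-Cre mouse 2 was left out, with adjusted p-values of 0.117 to 0.496, and also under other scalings, on the FPKM scale and with the mouse number as a block. It held with DESeq2 and without Ksp-Cre mouse 3. With the block, 0 genes in all were called.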

How the data were processed

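Per the labels, total RNA was extracted with Trizol and libraries were made with an NEBNext Ultra kit. The submitters' processing notes name CASAVA, featureCounts 2.0.1, DESeq2 1.16.1 and the human build hg38, although the deposited coordinates are those of mouse chromosomes. The aligner, the mouse build and the strand setting were not given in the sources used here. The authors deposited raw counts, TPM and FPKM per gene and library. TPM and FPKM recomputed from the deposited counts matched the deposited TPM and FPKM to their printed decimals. Per library, 5 gene entries broken over several lines were rejoined, and 0 value columns had no sample.

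Counts were filtered with filterByExpr, scaled by TMM and fitted with edgeR 4.0.16 (glmQLFit, glmQLFTest, R 4.3.3), 3 Ksp-Cre/Prdm16fl/fl against 2 Prdm16fl/fl libraries, with Benjamini-Hochberg adjustment over all 16394 genes. CPM are TMM-scaled. Adjusted p-values are edgeR's unless DESeq2 1.42.0 is named, and limma 3.58.1 was run on log2 FPKM with a pseudocount of 1 or 0.1. The script was tested on simulated data. The result of 1 further tested member, which stays in the counts, is not reported here. Members and lists were chosen with earlier results of these data known. Members on a segment list with a mean TPM of at least 1 were named, as were members with an adjusted p under 0.05, the 5 highest and the 5 lowest of those with separate groups, and, of the other junction genes, the 3 with the largest change. Of 11 members sharing exon bases with a gene on the opposite strand 9 were tested, and reads of either cannot be told apart there. Each label names a separate mouse, and no pair of libraries was alike within sampling noise.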

Additional observations from a re-analysis of the deposited data

How the results depend on the processing

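Counts of called members: 0 lower under each alternative run, and 0 higher except 2 with DESeq2, 1 with no filter on low counts (Cldn4) and 0 to 3 with one mouse left out (3 without Ksp-Cre mouse 3). The 1 call among the other junction genes became 0 with library size scaling, upper quartile scaling, the block and both FPKM fits, and 0 to 2 with one mouse left out. The members' median log2 fold change moved to 0.41 with library size scaling and ranged from 0.25 to 0.33 with one mouse left out. Members apart below the controls numbered 2 with library size scaling and both FPKM fits, and 5 to 7 with one mouse left out, and those above 18 to 23. Groups separate more readily with fewer mice. Without Ksp-Cre mouse 3, 23 members were above and 7 below, where 5387 and 4923 of all 16196 genes were so placed. With all mice these were 3329 and 3487 of 16394 genes.

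The labels number mice in both groups, and whether the shared numbers 1 and 3 mark pairs is not stated. The paper reports littermate controls but does not say which mice shared a litter. The correlations of deviations were 0.014 for the mice numbered 1 and -0.016 for those numbered 3. The deviations of the control libraries mirror each other, so these correlations cannot decide whether the samples were paired. With the mouse number as a block, 0 members and 0 genes in all were called, with 2061 genes at an unadjusted p under 0.05, the members' median was 0.28, and Cldn1 turned to -0.31 and Cldn2 to -0.12.

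Cldn8 turned to 0.088 with library size scaling and to 0.072 and 0.073 with the FPKM fits (pseudocounts 1 and 0.1), and Tjp3 to 0.014 with library size scaling. With one mouse left out, values spanned 0 in Cgnl1 (-0.056 to 0.27), Cldn1 (-0.087 to 0.53), Cldn15 (-0.021 to 0.44), Cldn16 (-0.44 to 0.071), Cldn2 (-0.12 to 0.13), Cldn8 (-0.22 to 0.18), Pard3 (-0.068 to 0.063) and Tjp3 (-0.26 to 0.081). Of 321 values of the 41 named genes under the other alternatives, 302 kept direction and side of the threshold. The causes were not tested. Precision is limited by the number of mice and, for low members such as Cdh17, by depth.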
